A study of Mus musculus with 12 samples.

Results

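A group of 10 genes that set the passage of cells from G1 into S phase was followed in mouse embryonic fibroblasts (MEFs) with and without RTF2, a protein that travels with the DNA replication machinery. They were the D-type cyclins Ccnd1, Ccnd2 and Ccnd3, the E-type cyclins Ccne1 and Ccne2, the CDK inhibitors Cdkn2a, Cdkn2b, Cdkn2c and Cdkn1b, and the retinoblastoma gene Rb1. The members were chosen by name, and all 10 were found among the 24100 genes of the count table and passed the filter on low counts, which left 14263 genes for testing. RNA was sequenced from 2 MEF lines, taken from different mothers. Wild-type (WT) MEFs were Rtf2+/+ and RTF2-deficient MEFs were Rtf2-/lox, with 1 null and 1 floxed allele, the floxed one to be excised by Cre recombinase. Both genotypes of both lines carried the same 2 further manipulations, SV40 large T antigen for immortalization and a Cre retrovirus 72 hrs before harvest, so that Cre itself does not separate the groups. Each of the 4 groups, WT line 1, RTF2-deficient line 1, WT line 2 and RTF2-deficient line 2, had 3 libraries, described as technical replicates, and p-values therefore measure the spread between libraries and not that between embryos.

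D-type cyclins are made in response to growth factors and activate CDK4 and CDK6, and E-type cyclins activate CDK2. Both kinds of kinase phosphorylate the Rb protein, which in its unphosphorylated state holds the E2F transcription factors and represses genes of DNA replication. The INK4 proteins encoded by Cdkn2a (p16), Cdkn2b (p15) and Cdkn2c (p18) block CDK4 and CDK6, whereas p27, encoded by Cdkn1b, acts mainly on cyclin E-CDK2 complexes. Cdkn2a also encodes ARF from an alternative first exon and reading frame, which stabilizes p53 by binding Mdm2. SV40 large T antigen binds Rb and p53, so in all 12 libraries these genes were measured in cells in which both proteins are targets of a viral oncoprotein. Most members are also regulated by protein turnover and phosphorylation, which RNA counts do not measure.

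Library totals lay between 39360167 and 44695002 counts. The targeted gene Rtf2 was at 44.8 to 57.8 CPM (a library's counts scaled to a total of 1e6, normalized by TMM) in the 6 WT libraries and at 5.44 to 6.66 CPM in the 6 RTF2-deficient libraries, so no library went against its label. Of 10 fibroblast markers, most were abundant, among them Col1a1 at 4849 to 9494 CPM, but Dcn was at 0.392 to 2.10 CPM and Pdgfra at 3.49 to 21.7 CPM. The 5 epithelial markers summed to at most 14.0 CPM and the 4 endothelial markers to at most 21.5 CPM in any library. The 4 blood markers summed to at most 9.47 CPM (in WT line 2), with Hbb-bs at no count and Cd68 at 1.44 to 8.95 CPM, and the 3 muscle markers to at most 18.3 CPM (in RTF2-deficient line 2), while Nes, listed with the neural markers, was at 201 to 507 CPM. Of the 4 groups, WT line 2 alone expressed the Y-linked genes Ddx3y, Uty and Eif2s3y. Xist was at 0.022 to 0.13 CPM in WT line 2 and at 114 to 173 CPM in RTF2-deficient line 2. In WT line 2 the median log2 CPM over 20 interferon-stimulated genes was 4.69 to 8.74. This was above WT line 1 (1.0 to 4.17) and RTF2-deficient line 1 (0.82 to 2.02) and overlapped RTF2-deficient line 2 (1.71 to 7.20). Any comparison with WT line 2 therefore also compares these states, and their part in the values below cannot be told apart from genotype or line.

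By GENCODE M21 (GRCm38, the mm10 assembly), Ccnd1 and Ccne1 lie on chromosome 7, Ccnd2 and Cdkn1b on chromosome 6, Ccnd3 on chromosome 17, Rb1 on chromosome 14, and the remaining members on chromosome 4. Cdkn2a (chr4:89274471-89294653, - strand) and Cdkn2b (chr4:89306299-89311039, - strand) are neighbours in the Ink4-Arf locus. Cdkn2a has 2 transcript starts, the upstream one for ARF and the downstream one for p16, and the deposited table gives 1 count for both, so p16 and ARF RNA cannot be told apart here. Promoter sequences are shown for the 2 members that differed between the WT lines, Ccne1 and Cdkn1b, and for both starts of Cdkn2a, to show how unlike the regions are whose transcripts share 1 count. Each is taken from the 250 bases before a RefSeq start on GRCm38.p6, read 5′ to 3′ on the gene's strand, with annotated exons of the gene left out, so that the Ccne1 stretch and that of the upstream Cdkn2a start end short of the RefSeq start. Capitals mark GGGCGG (the GC box bound by Sp1), CCAAT, and the E2F motifs TTTCCCGC and TTTGGCGC, searched on both strands, so that a GC box on the opposite strand reads CCGCCC.
Ccne1, chr7:38107535-38107740, - strand: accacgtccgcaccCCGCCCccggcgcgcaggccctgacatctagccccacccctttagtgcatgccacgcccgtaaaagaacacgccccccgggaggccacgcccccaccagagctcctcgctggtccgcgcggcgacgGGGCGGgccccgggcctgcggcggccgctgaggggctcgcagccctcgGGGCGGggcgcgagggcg
Cdkn1b, chr6:134920151-134920400, + strand: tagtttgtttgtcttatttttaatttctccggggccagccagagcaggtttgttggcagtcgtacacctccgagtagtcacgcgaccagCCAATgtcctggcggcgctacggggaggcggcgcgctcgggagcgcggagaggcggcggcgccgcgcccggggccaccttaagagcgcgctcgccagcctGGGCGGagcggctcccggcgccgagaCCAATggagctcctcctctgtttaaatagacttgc
Cdkn2a, upstream start (ARF), chr4:89294654-89294869, - strand: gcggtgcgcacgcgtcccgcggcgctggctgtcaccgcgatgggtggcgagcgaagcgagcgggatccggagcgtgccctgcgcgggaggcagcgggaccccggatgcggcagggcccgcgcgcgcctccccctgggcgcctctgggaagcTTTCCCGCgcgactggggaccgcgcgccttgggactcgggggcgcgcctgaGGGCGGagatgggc
Cdkn2a, downstream start (p16), chr4:89282193-89282442, - strand: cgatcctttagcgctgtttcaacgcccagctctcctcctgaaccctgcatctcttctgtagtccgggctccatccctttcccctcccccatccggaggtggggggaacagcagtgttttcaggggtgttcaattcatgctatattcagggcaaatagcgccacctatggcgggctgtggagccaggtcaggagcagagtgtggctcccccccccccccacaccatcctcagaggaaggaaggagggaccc
The Ccne1 stretch held 3 GC boxes and no CCAAT, and the Cdkn1b stretch held 1 GC box and 2 CCAAT motifs. The upstream Cdkn2a stretch held 1 GC box and 1 TTTCCCGC motif, whose first base lies 99 bases before the RefSeq start, while the downstream stretch held none of the 4 motifs. Over all 32851 RefSeq mouse promoters, 32.7% held a GC box, 33.8% a CCAAT and 0.895% TTTCCCGC in the 250 bases before the start. In the window of 206 bases shown for Ccne1, 25.8% held a GC box and 29.3% a CCAAT. In the window of 216 bases shown for ARF, 27.9% held a GC box and 0.746% held TTTCCCGC. GC and CCAAT boxes are thus common letters in promoters. A match describes the sequence and does not show that a factor binds it.

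Compared per length of exon, Cdkn2a was the most abundant member and Rb1 the least. The median over 12 libraries was 122 CPM per kb for Cdkn2a (range 97.9 to 168), and no library of any other member reached its lowest value. Ccnd2 followed at 48.7 (38.5 to 55.6), Ccnd1 at 43.9 (7.96 to 68.3), Cdkn2b at 33.0 (25.8 to 40.4), Cdkn1b at 26.1 (17.8 to 40.4) and Ccne2 at 24.9 (20.6 to 28.0), all in CPM per kb. Cdkn2c at 20.7 (17.8 to 25.5), Ccne1 at 19.8 (14.1 to 23.7), Ccnd3 at 12.8 (11.3 to 15.4) and Rb1 at 8.59 CPM per kb (7.17 to 10.1) came below. Of the 9 neighbouring pairs in this order, 2 did not overlap over the 12 libraries, Cdkn2a above Ccnd2 and Ccnd3 above Rb1. The other 7 neighbours overlapped, so their order is not separated by the spread between libraries. Ccnd3 moved to the 5th place when its longest transcript, 3858 bases, replaced the union of its exons, 8775 bases. Of the summed CPM per kb of Cdkn2a, Cdkn2b and Cdkn2c, Cdkn2a took 67.2% ± 1.01 in RTF2-deficient line 1 and 73.2% ± 1.97 in WT line 2 (SD, n = 3), the lowest and highest of the 4 group means.

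**Figure D1:**
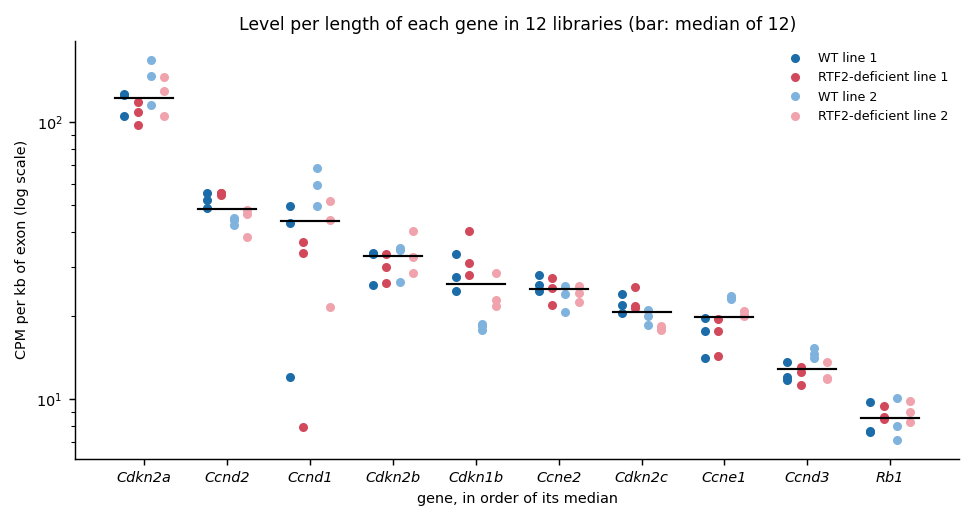
Level of each member in CPM per kb of exon on a log axis, with 1 point per library coloured by group and a bar at the median of 12 libraries. The points of Cdkn2a (97.9 to 168) lie above those of every other member, those of Rb1 (7.17 to 10.1) lie below those of its neighbour Ccnd3, and Ccnd1 spreads furthest, from 7.96 to 68.3.

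The first question was whether loss of RTF2 altered the RNA of this switch. None of the 10 members passed (Benjamini-Hochberg adjusted p below 0.05, edgeR's quasi-likelihood test, terms for line and genotype), beside 13.2% of all genes tested. None was among the 1.72% that also exceeded a log2 fold change of 1. One member, Cdkn1b, had an unadjusted p under 0.05, and DESeq2 and limma's voom (group as random block) each called this 1 member, beside 18.7% of all genes with an adjusted p in DESeq2 and 24.2% in voom. The median log2 fold change of the members, RTF2-deficient over WT, was -0.03, against 0.00 over all genes. The 95% intervals of 9 members lay between -0.38 and 0.55, and that of Ccnd1 was far wider.

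**Figure D2:**
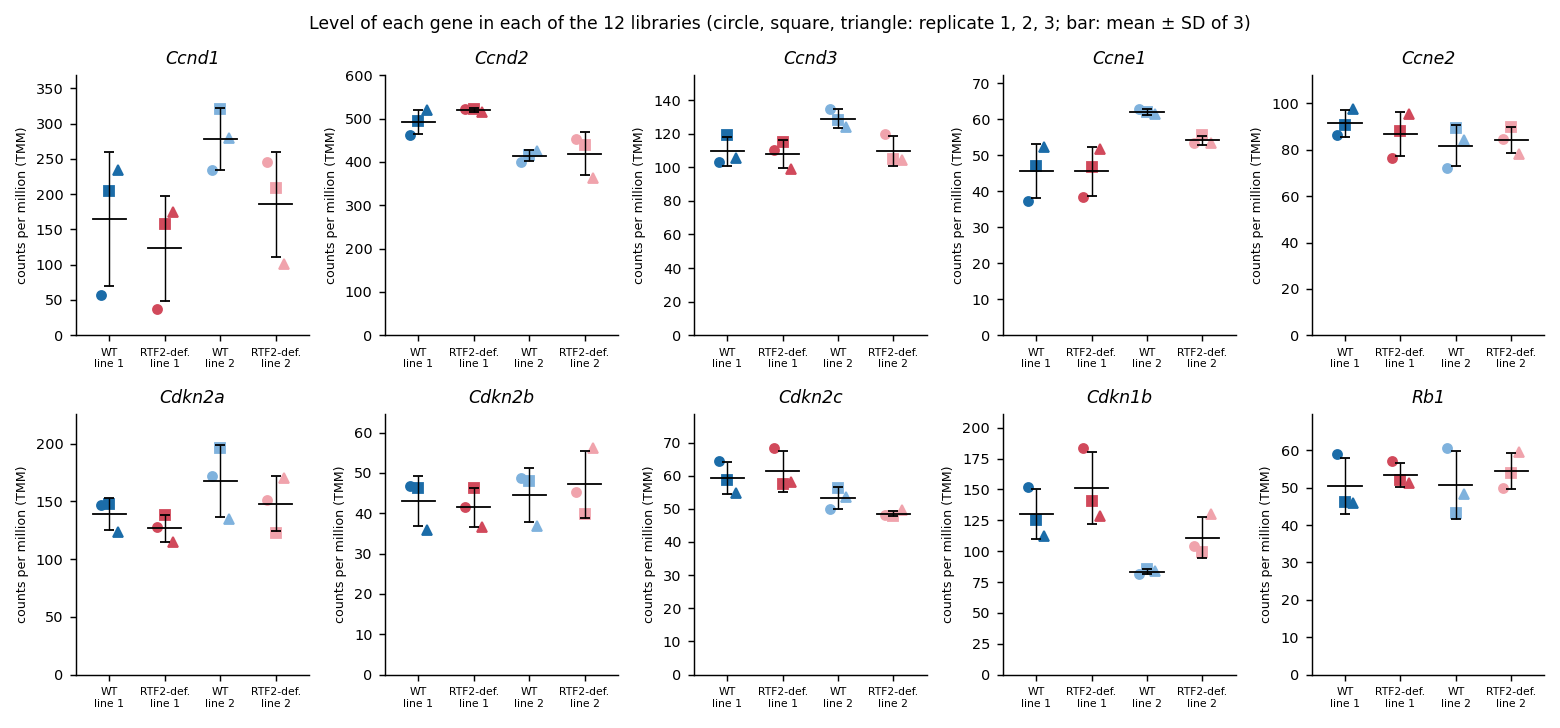
CPM of each member in each of the 12 libraries, by group, with the mean ± SD of 3 libraries as a bar; each vertical axis starts at 0. Ccnd1 spreads within groups, from 56.9 to 235 CPM in WT line 1, Cdkn1b is lowest in WT line 2 (81.2 to 85.3 CPM), and Ccne1 is highest there (61.4 to 63.0 CPM).

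Among the D-type cyclins, Ccnd1, the main mitogen-induced cyclin of fibroblasts, varied most. In line 1 it was at 56.9, 204 and 235 CPM in WT replicates 1, 2 and 3 and at 37.5, 158 and 174 CPM in the RTF2-deficient ones. In line 2 it was at 234, 321 and 280 CPM in WT and at 245, 209 and 102 CPM in RTF2-deficient replicates 1, 2 and 3. Replicate 1 was the low library in both genotypes of line 1, replicate 3 was the low one in RTF2-deficient line 2, and the genotypes overlapped in both lines. The fitted log2 fold change was -0.50 (SE 0.40, adjusted p = 0.426, edgeR), with an interval from -1.37 to 0.36, so that neither a large decrease nor a small increase lay outside it. With 1 library left out it ran from -0.68 without WT line 1 replicate 1 to -0.31 without RTF2-deficient line 1 replicate 1. The SD of Ccnd1 within groups was 0.911 on the log2 scale, at the 98.7th percentile of 12240 genes with a mean above 1 CPM, whose median was 0.157.

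Ccnd2 was at 463, 494 and 520.0 CPM in WT line 1 and at 523, 522 and 515 CPM in RTF2-deficient line 1. The line 2 values were 401, 417 and 425 CPM in WT and 454, 440.0 and 362 CPM in RTF2-deficient MEFs. The genotypes overlapped in both lines, and the fitted difference was 0.05 (SE 0.06, adjusted p = 0.646, edgeR). Ccnd3 was at 103, 119 and 106 CPM in WT line 1, where it overlapped RTF2-deficient line 1 (98.7 to 115 CPM). Line 2 had 135, 128 and 124 CPM in WT and 119.9, 105 and 104 CPM in RTF2-deficient MEFs. All 3 RTF2-deficient libraries of line 2 were below the 3 WT ones, a log2 difference of -0.23 (SE 0.09) whose adjusted p was 0.103 in edgeR. Over both lines the value for Ccnd3 was -0.13 (adjusted p = 0.231, edgeR). Per kb, Ccnd2 made up 60.2% ± 11.2 of D-type cyclin RNA in RTF2-deficient line 1 and 37.5% ± 2.43 in WT line 2, where Ccnd1 held 49.9% ± 3.79 (SD, n = 3).

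Of the E-type cyclins, which act at the end of G1, Ccne1 was at 37.4, 47.0 and 52.3 CPM in WT line 1 and at 38.3, 46.8 and 51.8 CPM in RTF2-deficient line 1, so that each pair of same-numbered libraries lay within 1 CPM. In line 2 it was at 63.0, 62.1 and 61.4 CPM in WT and at 53.4, 55.7 and 53.5 CPM in RTF2-deficient MEFs, without overlap. The log2 fold change was 0.00 (SE 0.13, adjusted p = 1, edgeR) in line 1 and -0.20 (SE 0.13, adjusted p = 0.335) in line 2. The difference between these was itself not called (interaction -0.20, SE 0.18, adjusted p = 0.941). With 1 library left out the interaction ran from -0.30 to -0.072. Ccne2 ranged from 72.0 to 97.8 CPM over the 12 libraries with overlap of all groups, and its genotype difference was -0.02 (SE 0.07, adjusted p = 0.891, edgeR).

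None of the INK4 genes among the members passed between genotypes over both lines in edgeR. Cdkn2a was at 147, 148 and 123 CPM in WT line 1 and at 128, 138 and 115 CPM in RTF2-deficient line 1. Its line 2 values were 172, 196 and 135 CPM in WT and 151, 123 and 171 CPM in RTF2-deficient MEFs. The genotypes overlapped in both lines, and the fitted difference was -0.16 (SE 0.10, adjusted p = 0.339, edgeR). Its neighbour Cdkn2b was at 35.8 to 48.8 CPM in the 6 WT libraries and at 36.6 to 56.2 CPM in the 6 RTF2-deficient ones, a difference of 0.02 (SE 0.11, adjusted p = 0.937). Cdkn2c was at 64.3, 58.7 and 54.9 CPM in WT line 1, at 68.4, 57.4 and 58.2 CPM in RTF2-deficient line 1 and at 49.8, 56.3 and 53.5 CPM in WT line 2. It was at 48.3, 47.9 and 49.5 CPM in RTF2-deficient line 2, below every WT library of that line by a small margin, and its genotype difference was -0.04 (SE 0.06, adjusted p = 0.711, edgeR). Cdkn2a and Cdkn2b have related coding sequences, and how the counting assigned reads that match both is not given in the sources used here.

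Cdkn1b, whose product p27 restrains cyclin E-CDK2 in resting cells, had the smallest p of the 10 members. It was at 152, 126 and 112 CPM in WT line 1 and at 184, 141 and 128 CPM in RTF2-deficient line 1. In line 2 it was at 81.2, 85.3 and 83.8 CPM in WT and at 104, 99.2 and 129.7 CPM in RTF2-deficient MEFs. The genotypes overlapped in line 1 and were apart in line 2, where the 3 RTF2-deficient libraries were all higher. The log2 fold change was 0.31 over both lines (SE 0.11, interval 0.08 to 0.55), with an adjusted p of 0.0749 in edgeR and an unadjusted p of 0.0125. DESeq2 gave an adjusted p of 0.0344, voom with groups as random blocks gave 0.0210, and edgeR gave 0.0286 when WT line 1 replicate 1 was left out and 0.0433 when RTF2-deficient line 1 replicate 3 was. The other 10 fits with 1 library left out did not pass, with adjusted p-values up to 0.133, and the value ran from 0.26 to 0.39 over all 12. With a term for the interferon score the value was 0.40 (adjusted p = 0.0295, edgeR). The sign was the same under every alternative tried, and the call thus depended on the tool and on single libraries. By line, edgeR gave 0.22 (adjusted p = 0.621) in line 1, or 0.050 without RTF2-deficient line 1 replicate 1, and 0.41 (adjusted p = 0.103) in line 2.

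Rb1, the substrate of these kinases, was at 59.0, 46.2 and 45.9 CPM in WT line 1 and at 57.2, 52.1 and 51.3 CPM in RTF2-deficient line 1. Rb1 in line 2 was at 60.7, 43.1 and 48.3 CPM in WT and at 49.9, 54.0 and 59.5 CPM in RTF2-deficient MEFs. The groups overlapped throughout, with a difference of 0.10 (SE 0.09, interval -0.11 to 0.30, adjusted p = 0.524, edgeR). With a term for the interferon score, each library's median over the interferon-stimulated genes, it was 0.24 and passed (adjusted p = 0.0304, edgeR), beside 13.4% of all genes in that fit.

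By line, 0 of 10 members passed in line 1 (3.20% of all genes), with 0 at an unadjusted p under 0.05 and 0 in DESeq2 (5.89% of all genes with an adjusted p). In line 2, 0 passed in edgeR (12.5% of all genes) and in DESeq2 (18.3%), with 2 at an unadjusted p under 0.05, Ccnd3 and Cdkn1b. The line by genotype interaction was called for 0 members (1.29% of all genes), with 0 at an unadjusted p under 0.05 and 0 in DESeq2 (2.52%). No member separated the 6 WT from the 6 RTF2-deficient libraries, as 5.97% of all genes did. No member separated the genotypes in line 1 (21.1% of all genes). In line 2, 4 members separated them (29.5% of all genes), Cdkn1b upwards and Ccnd3, Ccne1 and Cdkn2c downwards, a share not far from that of all genes.

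**Figure D3:**
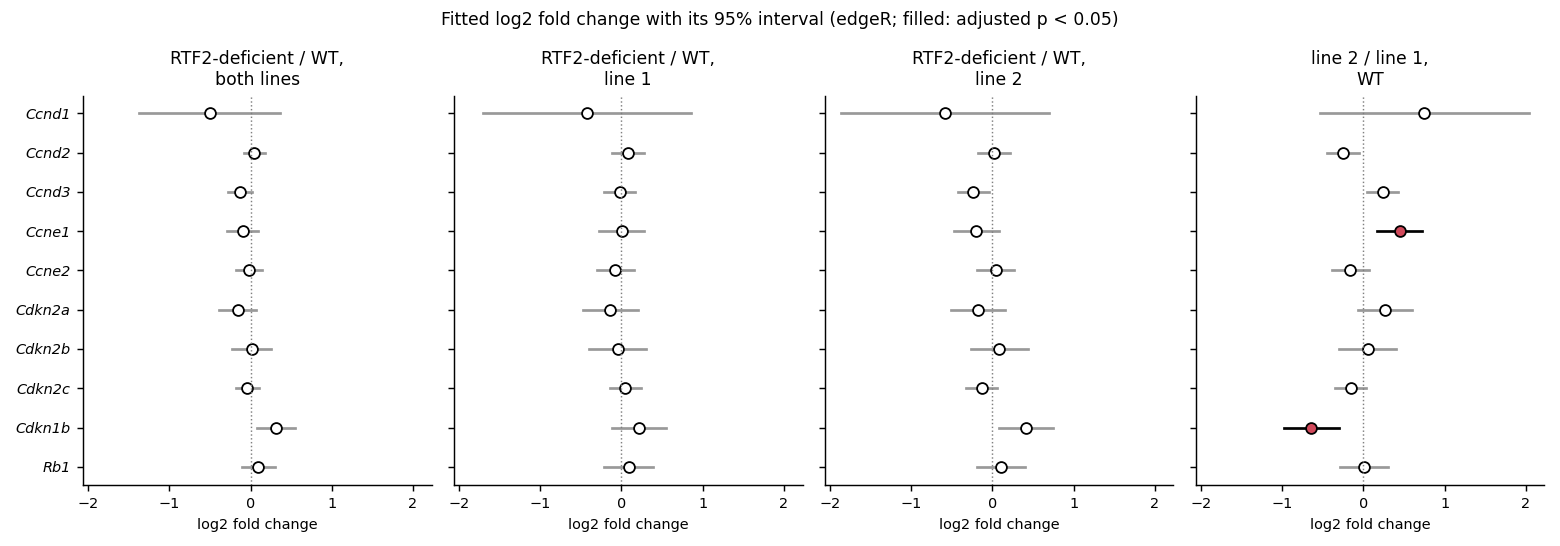
Fitted log2 fold changes of the 10 members with 95% intervals (edgeR) for RTF2-deficient over WT in both lines, in line 1 and in line 2, and for line 2 over line 1 in WT MEFs; filled points passed at an adjusted p under 0.05. Only the last panel holds filled points, Ccne1 at 0.45 and Cdkn1b at -0.64, and the widest intervals are those of Ccnd1.

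Same-numbered WT and RTF2-deficient libraries of line 1 deviated from their group means together, with correlations over genes of 0.653 to 0.750. With 3 libraries a group, numbers can match in this way by chance, and this was not tested. With the number as a block and the 6 libraries of line 1 alone, a fit added after the data were seen, 3 members passed in edgeR, none of them past the fold threshold, where the same 6 libraries without the block gave 0. This count stood beside 29.1% of all genes in that fit, so it sets the members no further apart than genes at large. Ccnd1 was lower in each RTF2-deficient library than in its WT counterpart, by log2 differences of -0.60, -0.37 and -0.43, and its fitted value was -0.46 (SE 0.05, adjusted p = 0.000317, edgeR). Cdkn2a was lower in all 3 pairs, with a fitted value of -0.14 (SE 0.04, adjusted p = 0.0254). Cdkn1b was higher in all 3 pairs, with differences of 0.27, 0.17 and 0.19 and a fitted value of 0.21 (SE 0.03, adjusted p = 0.00248). Without the block the adjusted p-values over these 6 libraries were 0.832 for Ccnd1, 0.596 for Cdkn2a and 0.616 for Cdkn1b (edgeR). The 3 calls thus rest on the pairing by number. The replicate numbers of RTF2-deficient line 2 did not pair with the same numbers of any other group. Its replicates 1, 2 and 3 correlated best with replicates 2, 3 and 1 of each of the 3 other groups (0.451 to 0.755). This match comes from the data and not from the labels, so no libraries were paired across numbers and no paired value was computed for line 2.

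**Figure D4:**
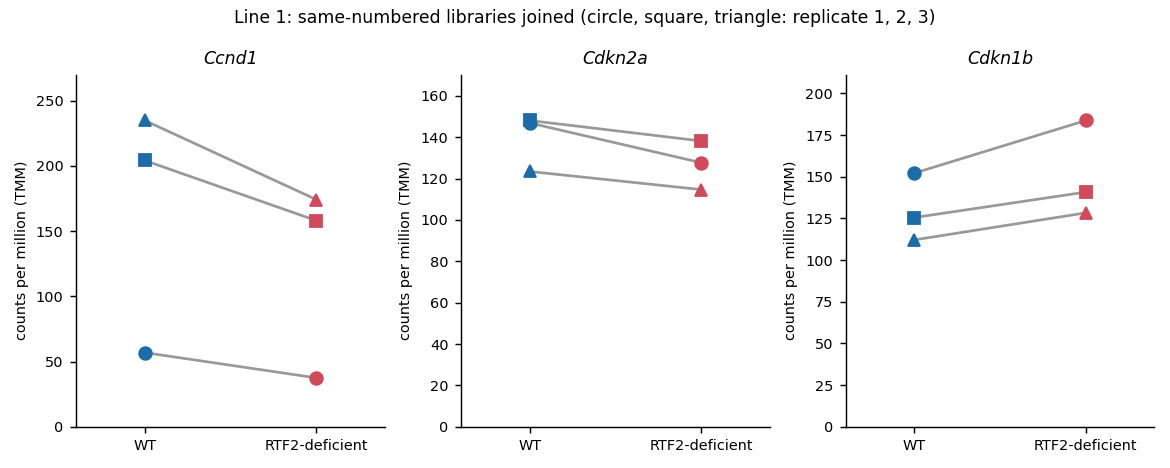
CPM of Ccnd1, Cdkn2a and Cdkn1b in the 6 libraries of line 1, with lines joining WT and RTF2-deficient libraries of the same replicate number. Every line falls for Ccnd1 and Cdkn2a and rises for Cdkn1b, while the spread between replicate numbers is larger than the step between genotypes for each of these genes.

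The second question was how far the switch differed between the MEF lines, as a measure of variation apart from Rtf2. Between the WT lines 2 members passed, Ccne1 higher and Cdkn1b lower in line 2, beside 14.0% of all genes. Ccne1 was higher in line 2 by 0.45 on the log2 scale (SE 0.13, adjusted p = 0.0371, edgeR), with means of 62.1 ± 0.811 and 45.6 ± 7.54 CPM (SD, n = 3). Cdkn1b was lower in line 2 by a log2 value of -0.64 (SE 0.15, adjusted p = 0.0173, edgeR), with means of 83.4 ± 2.04 and 129.9 ± 20.4 CPM. Together with Ccnd3, which was higher, and Ccnd2, which was lower in line 2, they made up 4 members whose WT libraries did not overlap between lines, beside 30.2% of all genes. Ccnd2 differed by -0.25 (adjusted p = 0.0923) and Ccnd3 by 0.24 (adjusted p = 0.0957) in edgeR. In DESeq2 3 members passed, beside 17.5% of all genes with an adjusted p, with Ccnd2 (-0.26, adjusted p = 0.0317) added to Ccne1 and Cdkn1b. In this comparison the line, the sex-linked genes and the interferon-stimulated genes all move together, and they cannot be told apart.

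The values held their sign with any library left out, but the adjusted p did not always stay under the threshold. Without WT line 1 replicate 1, the library lowest in Ccne1 and highest in Cdkn1b of its group, edgeR gave Ccne1 a value of 0.31 (adjusted p = 0.119) and Cdkn1b one of -0.53 (adjusted p = 0.0574). Without WT line 2 replicate 1 these were 0.43 (adjusted p = 0.0948) and -0.63 (adjusted p = 0.0516). Ccne1 also lost its call, at values of 0.43 to 0.45, without WT line 1 replicate 2, WT line 2 replicate 2 or 3, RTF2-deficient line 1 replicate 2, or RTF2-deficient line 2 replicate 1 or 2, with adjusted p-values of 0.0610 to 0.10. The RTF2-deficient libraries among these do not enter the contrast itself but share in the estimate of the spread. Ccnd2 gained one without RTF2-deficient line 2 replicate 3 (adjusted p = 0.0280). Same-numbered libraries of the WT lines also deviated together (correlations of 0.397 to 0.528), and with the number as a block over the 6 WT libraries the same 2 members passed, Ccne1 at an adjusted p of 0.0391 and Cdkn1b at 0.00942 (edgeR), beside 17.6% of all genes.

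Between the RTF2-deficient lines 0 members passed in edgeR (1.94% of all genes), with 3 at an unadjusted p under 0.05. DESeq2 called 2, beside 4.41% of all genes with an adjusted p, Ccnd2 at a log2 value of -0.32 and Cdkn2c at -0.35, line 2 over line 1. Ccne1 was at 53.4 to 55.7 CPM in line 2 and at 38.3 to 51.8 CPM in line 1, Ccnd2 at 362 to 454 against 515 to 523 CPM, and Cdkn2c at 47.9 to 49.5 against 57.4 to 68.4 CPM. These 3 members did not overlap between the RTF2-deficient lines, beside 19.8% of all genes. The fitted values of Ccne1 (0.25) and Cdkn1b (-0.44) had the same signs as between the WT lines, with adjusted p-values of 0.440 and 0.211 in edgeR, and were 0.13 and -0.29 without RTF2-deficient line 1 replicate 1.

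Some pairs of members varied together from library to library. Over the 12 libraries, which share their 4 groups and in part their replicate numbers, the log2 CPM of Ccne1 and Cdkn1b had a Pearson's r of -0.931, and of -0.874 for deviations from the group means. Ccnd1 and Cdkn1b had an r of -0.867, and of -0.933 within groups. Ccnd1 and Ccne1 ran the same way, at 0.860 and 0.886. The libraries with the lowest Ccnd1, replicate 1 of both genotypes of line 1 and replicate 3 of RTF2-deficient line 2, were also the highest of their groups in Cdkn1b. In WT line 2 replicate 1 was the lowest in both genes, at 234 CPM of Ccnd1 and 81.2 CPM of Cdkn1b. The neighbours Cdkn2a and Cdkn2b had an r of 0.811, and of 0.935 within groups, and Cdkn2c and Cdkn1b one of 0.709 and 0.841. The pairs named are among the strongest, and others were weak or changed sign. Within groups Ccnd3 had an r of -0.040 with Cdkn1b and of -0.073 with Ccne1. Ccnd1 and Ccnd2 had an r of -0.222 over the 12 libraries and of 0.561 within groups. Whether reads that match both Cdkn2a and Cdkn2b enter their r was not tested. These are descriptions of 12 libraries, with no share of all gene pairs beside them.

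**Figure D5:**
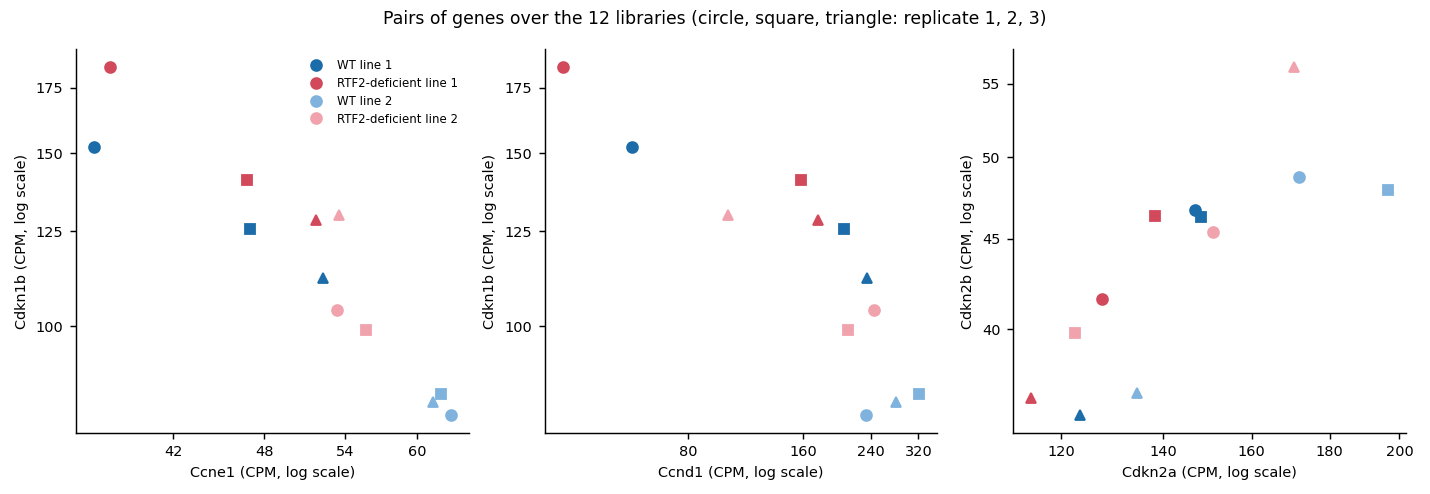
CPM of Ccne1 against Cdkn1b, Ccnd1 against Cdkn1b and Cdkn2a against Cdkn2b on log axes, with 1 point per library, colours for groups and shapes for replicate numbers. Cdkn1b is lower where Ccne1 (r = -0.931) and Ccnd1 (r = -0.867) are higher, and Cdkn2a and Cdkn2b increase together (r = 0.811).

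Among 12239 other genes with a mean above 1 CPM, those whose log2 CPM correlated best with each member other than Ccnd2 over the 12 libraries were found. For Ccnd1 they were Mns1 (r = 0.964) and Ebf2 (0.954), and for Ccnd3 Ehmt2 (0.909) and Hspa1b (0.901). For Ccne1 they were Fosl1 (0.974), a subunit of the AP-1 transcription factor, and Rprd1b (0.967), and for Ccne2 Nap1l4 (0.941) and Zcchc9 (0.936). Cdkn2a was most like Abhd12 (0.936) and Pnrc1 (0.911), Cdkn2b like Zfp248 (0.920) and Nsmce2 (0.912), and Cdkn2c like Pax9 (0.966) and Bmp4 (0.959). Cdkn1b was most like Dact1 (0.982) and Pcsk5 (0.978), and Rb1 like Tulp4 (0.964) and Iffo1 (0.956). None of these genes was named for more than 1 member, and the best of this many correlations over 12 libraries is high by selection.

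The pathway around the members was followed through lists chosen by function, and their counts stand beside the 13.2% of all genes that passed in edgeR and the 18.7% in DESeq2 in the comparison of genotypes. Of the 7 partner kinases and their activators, 1 was lower and none higher in RTF2-deficient MEFs, Ccnh of the CDK-activating kinase (-0.24), which did not pass with no filter (adjusted p = 0.0520) or no line term (adjusted p = 0.0700, edgeR). Cdk4, the partner of the D-type cyclins, was at -0.06 (adjusted p = 0.626, edgeR), Cdk6 at 0.34 (adjusted p = 0.287) and Cdk7 at -0.10 (adjusted p = 0.302). Of the 3 other CDK inhibitors, Cdkn1c, which encodes p57 of the same family as p27, was higher, by a log2 fold change of 1.01 (SE 0.27, adjusted p = 0.0306, edgeR), and was the 1 gene of these pathway lists past the fold threshold. It was at 14.3 to 34.2 CPM in the 6 WT libraries and at 25.7 to 68.0 CPM in the 6 RTF2-deficient ones, with overlap. By line, Cdkn1c passed in line 2 but not in line 1 (edgeR). Its means in WT and RTF2-deficient MEFs were 24.3 and 37.0 CPM in line 1 and 18.7 and 49.7 CPM in line 2. Cdkn1a, which encodes p21, was at -0.16 (adjusted p = 0.488), and Cdkn2d at -0.08 (adjusted p = 0.462). With 1 library left out Cdkn1a ran from -0.22 to -0.041 and Cdkn2d from -0.14 to -0.049.

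Of 12 other pocket proteins and E2F factors, 1 was lower, the activator E2f1 (-0.30, SE 0.05, adjusted p = 0.00314, edgeR), and 2 were higher, the activator E2f3 (0.21) and the repressor E2f7 (0.31), of which E2f3 did not pass with the interferon score term (0.15, adjusted p = 0.0948, edgeR). Of 21 genes of the G1/S transition that E2F controls, 2 were lower, the helicase subunit Mcm7 (-0.29, adjusted p = 0.00202) and the DNA polymerase subunit Pola1 (-0.24, adjusted p = 0.00929), and 0 were higher, with a list median of -0.06, and the licensing factor Cdt1 was at -0.16 (adjusted p = 0.0761 in edgeR and 0.0227 in voom). Of 18 G2/M genes, 0 passed in edgeR or DESeq2 and 0 had an unadjusted p under 0.05. Their smallest p-values were those of Birc5 (-0.27), Ccnb2 (-0.21) and Aurkb (-0.17), with adjusted p-values of 0.212 to 0.252 in edgeR. With a term for the interferon score Birc5 (-0.44, adjusted p = 0.0264) and Ccnb2 (-0.35, adjusted p = 0.0158) passed in edgeR, beside 13.4% of all genes. Of 11 measured genes of G1 cyclin and p27 turnover, 1 passed, Rnf123 (-0.39, adjusted p = 0.00264), a subunit of a ubiquitin ligase for p27. Skp2, of the other ligase for p27, was at 0.18 (adjusted p = 0.0899 in edgeR, 0.0496 in DESeq2 and 0.0311 in voom) and its cofactor Cks1b at 0.17 (adjusted p = 0.299, edgeR).

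Of 18 regulators of the Ink4-Arf locus, 2 were lower, the Polycomb genes Cbx7 (-0.56) and Ring1 (-0.28), and 2 were higher, Kdm2b (0.24) and Dmtf1 (0.19), an activator of the ARF promoter, while 6 of the 18 passed in DESeq2. With the interferon score term Cbx7 (-0.51, adjusted p = 0.0529), Kdm2b (0.19, adjusted p = 0.0559) and Ring1 (-0.24, adjusted p = 0.0973) no longer passed in edgeR, and Ring1 also did not with no filter (0.0702) or with the replicate block over 12 libraries (0.0554). The 4 genes did not pass with no line term (adjusted p = 0.0547 to 0.103). Of 7 genes of the ARF-Mdm2-p53 arm, 1 was lower, the apoptosis gene Bax, at 133 to 165 CPM in WT and 70.8 to 93.2 CPM in RTF2-deficient libraries without overlap (log2 fold change -0.89, SE 0.06, adjusted p = 6.56e-06, edgeR). Trp53, which encodes p53, was at -0.01 (adjusted p = 0.935) and Mdm2 at -0.06 (adjusted p = 0.771), while Usp7 was at 0.18 (adjusted p = 0.112 in edgeR and 0.0364 in voom) and Ccng1 at -0.11 (adjusted p = 0.329). Of 14 mitogenic regulators of the D-type cyclins, 0 passed in edgeR, 4 had an unadjusted p under 0.05 and 3 passed in DESeq2. The smallest p-values were those of Yap1 (0.16, adjusted p = 0.0509), Gsk3b (0.19, adjusted p = 0.0532) and Lef1 (0.85, adjusted p = 0.115 in edgeR, 0.0410 in DESeq2 and 0.0258 in voom). Yap1 and Gsk3b passed with RLE or upper-quartile normalization, with a filter of 1 CPM in 6 libraries and in voom as well as in DESeq2. Bax, E2f1, Mcm7, Pola1 and Rnf123 passed in all 12 fits that left out 1 library. The other 8 genes named as lower or higher passed in 2 (Ring1) to 10 (Cbx7) of the 12 fits, and all 8 lost the call without RTF2-deficient line 2 replicate 2, with adjusted p-values of 0.0546 (Kdm2b) to 0.107 (Ring1).

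Between the WT lines 14.0% of all genes passed in edgeR and 17.5% in DESeq2. Beside this, 2 of the 18 Ink4-Arf regulators were higher in line 2, Tbx3 (1.33, SE 0.23, adjusted p = 0.00320, edgeR), a repressor of the locus, and Cbx7 (0.79), and Kdm2b was lower (-0.26). Tbx3 was at 7.95 to 11.3 CPM in WT line 1 and at 17.2 to 28.8 CPM in WT line 2. Of the 14 mitogenic regulators 3 were higher in line 2, Tcf7l2 (0.90), Jun (0.80) and Egr1 (0.73), the first a Wnt effector and the others immediate-early factors. Cdk2, the partner of cyclin E, was lower by a log2 value of -0.23 (adjusted p = 0.0471), the INK4 gene Cdkn2d was lower by -0.35 (adjusted p = 0.0489), and Fbxw7, which targets cyclin E for degradation, was higher by 0.33 (adjusted p = 0.0453, edgeR). Over the 6 WT libraries with the replicate number as a block these 3 and Kdm2b no longer passed in edgeR, at adjusted p-values of 0.0797 for Cdk2, 0.0958 for Cdkn2d, 0.0577 for Fbxw7 and 0.0518 for Kdm2b. Of the 20 interferon-stimulated genes 8 were higher in line 2 in edgeR, by log2 values of 3.77 (Ifih1) to 6.72 (Rsad2), 20 had an unadjusted p under 0.05 and 19 passed in DESeq2. The 8 lost the call without WT line 1 replicate 2, at values of 3.50 (Ifih1) to 6.37 (Rsad2), and without WT line 1 replicate 3, at 3.55 (Ifih1) to 6.51 (Rsad2). Without WT line 2 replicate 1 the values were 1.59 (Mx1) to 4.73 (Oas1a), and 1 of the 8 passed, Ifih1 (2.79, adjusted p = 0.0473, edgeR). In the comparison of genotypes 0 of these 20 passed in edgeR or DESeq2 and 0 had an unadjusted p under 0.05, with a list median of -1.55 and values of -2.31 for Mx1, -2.38 for Mx2 and -1.59 for Parp14. Without WT line 2 replicate 1 these were -0.21, -1.07 and -0.85, and without RTF2-deficient line 2 replicate 3 they were -2.80, -4.90 and -2.49, where Mx2 passed (adjusted p = 0.0465, edgeR). Tbx3, Tcf7l2 and Jun passed in all 12 fits that left out 1 library, Cbx7 lost its call without WT line 1 replicate 2 (adjusted p = 0.0596), and of the 12 fits Kdm2b and Egr1 passed in 8, Cdk2 in 5, Fbxw7 in 3 and Cdkn2d in 1, with adjusted p-values up to 0.0938 (Egr1) to 0.181 (Fbxw7).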

How the data were processed

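For each of 12 libraries of 75-base single-end reads the authors deposited whole-number read counts by Entrez Gene number, not normalized. Their methods name Salmon, mm10 gene models and tximport, whereas the submitters' notes list HTSeq, so the counting tool is unsettled. Strand use and poly(A) selection are not given in the sources consulted. Read sharing between genes can therefore move counts of Cdkn2a and Cdkn2b. Symbols came from RefSeq, which held 24045 of 24100 identifiers, and exon lengths from GENCODE M21.

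Counts were filtered by filterByExpr on the 4 groups, normalized by TMM and fitted with glmQLFit and glmQLFTest (edgeR 4.0.16, R 4.3.3), with terms for line and genotype, or as contrasts of the 4 groups, over all 12 libraries. A gene passed, or was called, at a Benjamini-Hochberg adjusted p under 0.05, and the study's further threshold, a log2 fold change beyond 1, is named where it is used. Standard errors are the unshrunken coefficient over the square root of F, and intervals are 95%. Log2 CPM for correlations used a prior count of 2. A count of 0 allows up to 3 counts, which covers counting error only. DESeq2 1.42.0 and voom in limma 3.58.1, other normalizations and filters, a replicate block, summed triplicates, an interferon score term and each library left out were alternatives. The comparisons were tested on simulated data.

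Members, lists and tests were chosen with earlier results of these data known. Named beside the members were, from each list, the genes past both thresholds and the 3 of smallest p in the genotype comparison, genes that passed in the comparison described, and the 2 genes most like each member, which for Ccnd2 are not reported here.

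Replicate numbers were checked by correlating the deviations of same-numbered libraries over genes. They were 0.653 to 0.750 between the line 1 groups, 0.397 to 0.528 between the WT groups, 0.371 to 0.428 between WT line 2 and RTF2-deficient line 1, and -0.710 to 0.210 for any pair with RTF2-deficient line 2. Its replicates 1, 2 and 3 correlated best with numbers 2, 3 and 1 of every other group (0.451 to 0.755), which the labels do not give, so its libraries were not paired.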

Additional observations from a re-analysis of the deposited data

How the results depend on the processing

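With 3 technical libraries a group and 2 lines, the data limit what can be said of small differences, and those of Ccnd1 above all. In the comparison of genotypes the number of members that passed was 0 in edgeR, 1 (Cdkn1b) in DESeq2 and with voom, and 2 with a term for the interferon score, Cdkn1b (0.40, adjusted p = 0.0295) and Rb1 (0.24, adjusted p = 0.0304, edgeR). It was 0 with RLE or upper-quartile normalization, other filters, the replicate block over 12 libraries and no term for line, and 0 to 1 with 1 library left out. The replicate block over 12 libraries changed no member's call, but it joins RTF2-deficient line 2 to the other groups by numbers that do not pair, so it says nothing of stability. In line 1 the count was 3 with the replicate block over that line's 6 libraries. Between the WT lines it was 2, but 3 in DESeq2 (Ccnd2 added), 1 with no filter (Ccne1 at an adjusted p of 0.0518, edgeR), 1 over the 6 WT libraries with no replicate block, and 0 to 3 with 1 library left out. Between the RTF2-deficient lines DESeq2 gave 2. The cause of these shifts was not tested.

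Signs turned for values near 0, for Ccnd1 in line 1 (-0.42) and in the interaction (-0.16), and for Cdkn1a between genotypes (-0.16). The line difference of Rb1 in WT, 0.01, became -0.0019 with RLE, -0.021 with no filter, -0.0065 in DESeq2, and -0.0071 with and -0.0028 without the replicate block over 6 libraries. With the interferon term Ccnd2 became -0.023 and Cdkn1a 0.084. With 1 library left out, the genotype difference kept its sign from 0.023 to 0.10 for Ccnd2, from -0.21 to -0.098 for Cdkn2a, from -0.085 to -0.012 for Cdkn2c and from 0.049 to 0.17 for Rb1, and ran from -0.057 to 0.028 for Ccne2 and from -0.044 to 0.063 for Cdkn2b. In line 1 it ran from -0.82 to 0.0085 for Ccnd1, from -0.072 to 0.040 for Ccnd3, from -0.11 to 0.11 for Ccne1, from -0.16 to 0.0039 for Ccne2, from -0.17 to 0.027 for Cdkn2b and from -0.036 to 0.12 for Cdkn2c. In line 2 it ran from -0.042 to 0.13 for Ccnd2, from -0.038 to 0.11 for Ccne2 and from -0.047 to 0.20 for Cdkn2b. The interaction ran from -0.59 to 0.25 for Ccnd1, from -0.12 to 0.040 for Ccnd2, from -0.17 to 0.089 for Cdkn2a, from -0.0038 to 0.26 for Cdkn2b and from -0.11 to 0.17 for Rb1. The line difference ran from -0.075 to 0.15 for Cdkn2b and from -0.15 to 0.12 for Rb1 in WT, and from -0.052 to 0.069 for Ccnd3, from -0.13 to 0.034 for Ccne2 and from -0.050 to 0.080 for Rb1 in RTF2-deficient MEFs.

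Over all genes, 1878 passed in the comparison of genotypes, against 3457 with voom, 1227 with no line term, 0 with summed triplicates, a fit of 4 samples in which Rtf2 itself did not pass (adjusted p = 0.102, edgeR) and which therefore says nothing of the members, and 1158 to 1974 with 1 library left out. In line 1, 456 passed against 848 in DESeq2 and 192 to 480 with 1 library left out, in line 2, 1776 against 813 to 2372, and for the interaction 184 against 401 in DESeq2 and 66 to 164. Between the WT lines 1998 passed against 1258 over 6 libraries with no block and 1260 to 2221 with 1 library left out, and between the RTF2-deficient lines 276 against 684 in DESeq2 and 119 to 400. In the order of levels 2 neighbouring pairs did not overlap under either alternative, the same pairs without TMM, but Cdkn2a above Ccnd2 and Cdkn2c above Rb1 with the longest transcript.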
